A study of Mus musculus with 11 samples.

Results

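Sst, Npy, Crhbp, Lhx6, Nos1, Satb1 and Elfn1 are 7 genes of the inhibitory neurons that make the peptide somatostatin. They were taken by name from a table of 17118 genes measured in the hippocampus of mice after chemotherapy, and all 7 were in the table and passed the count filter that left 15353 genes. The genes were chosen because of how they stood in the comparison of AC-T with saline, so their values in that comparison are a description without a test. Every library listed all 7 genes above 0.

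AC-T joins doxorubicin and cyclophosphamide with a later course of paclitaxel, a combination used against breast cancer. Female mice of the strain given as C57/BL6 (genotype C57/BL6J), aged 12 weeks at the start, had 8 injections into the abdominal cavity at intervals of a week. In the AC-T group (mice 501, 502, 503, 600 and 602) the first 4 injections combined doxorubicin at 2 mg/kg and cyclophosphamide at 50 mg/kg, and the last 4 were paclitaxel at 5 mg/kg. The control group (mice 201, 202, 203, 300, 301 and 302) received 0.9% saline on the same schedule, and all 11 samples carry a time label of 1 month. The series states 6 samples per group, and 5 AC-T libraries were analysed here. RNA came from whole tissue collected from frozen brain slices with a 0.2 mm punch, so more cells of a type and more RNA per cell cannot be told apart. The labels number the mice separately, and p-values measure the spread between these samples.

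Somatostatin interneurons arise in the medial ganglionic eminence (MGE), an embryonic source of inhibitory neurons that use GABA as transmitter. In the adult hippocampus they sit mainly in the stratum oriens of the CA fields and in the hilus of the dentate gyrus, and many of them inhibit the distal dendrites of principal cells where the entorhinal input arrives. The transcription factors Lhx6 and Satb1 act during their development, the peptides somatostatin and neuropeptide Y are released by overlapping sets of them, and Elfn1 shapes the excitatory synapses they receive. Several of these genes are also active outside this lineage, among them Satb1 and Nos1 in excitatory neurons of the cortex.

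Library totals spanned 23.4 M to 32.1 M counts (M, mega), and 28.3 M to 31.7 M after AC-T. The treatment protocol calls all mice female, yet Xist, which coats the inactive X chromosome, had a listed value of 0 for saline 300. Elsewhere it had between 13057 and 22963 counts. The labelled tissue was checked against marker lists, each summarised as a score, the mean log2 CPM of its genes. CPM is the read count normalised to a common library size. Markers of CA1, CA3 and dentate neurons were present in all libraries, and so were markers of the thalamus, which lies beneath the hippocampus in coronal slices. Of 17 thalamic markers, 15 were called lower and 0 higher after AC-T, where 3.58% of all genes were called lower and 4.89% higher. Their summed level was 778 to 1150 CPM after AC-T and 1506 to 2260 CPM after saline, without overlap. Among neocortical markers 4 of 10 were higher and 1 was lower, with overlapping summed levels (296 to 421 against 214 to 374 CPM). The summed CA1 markers did not overlap (491 to 643 against 134 to 415 CPM), with 1 of 7 called higher. The hypothalamic markers Avp and Pmch lay under the count filter. The thalamic markers were thus lower after AC-T and the summed CA1 markers higher, while the neocortical markers were mixed. The part of tissue composition in the results, beyond the fits described here, was not tested.

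Somatostatin transcription is a textbook case of control by cAMP through the cAMP response element, so the start sites were searched for its letters. RefSeq start-site windows on build GRCm38.p6, from 250 bases before to 50 bases after a start, were matched by symbol for 7 of the 7 genes. The full element TGACGTCA was present in 1 of them, Sst, and in 1.79% of 32851 windows (2.03% of 27025 genes). Its short form TGACG, searched on both strands and contained in the full element, was present in Sst, Crhbp and Nos1. It was present in 20.8% of windows and 23% of genes. The stretches of the 3 genes with a match are shown, and any link of the element to how genes varied between mice was not tested. They run 5′ to 3′ along the strand of the gene, with the match in capitals, and CGTCA is TGACG read on the other strand.
Sst: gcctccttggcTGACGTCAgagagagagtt
Crhbp: gagctggaccctCGTCAttgccacgcattt
Nos1: aaaccagccatgCGTCAggcttggcttcag
The Sst stretch lies at chr16:23890874-23890903 on the minus strand, with its match at −48 to −41 from the start. The Crhbp stretch lies at chr13:95444878-95444907 on the minus strand (match at −64 to −60), and the Nos1 stretch at chr5:117866697-117866726 on the plus strand (match at −130 to −126). In the GENCODE annotation of the same build, the Sst and Crhbp stretches overlap an annotated exon at least in part, and the Nos1 stretch does not. Whether the match itself lies in the exon was not determined. A match describes the letters in a window and does not show a bound site. The windows of Npy, Lhx6, Satb1 and Elfn1 held neither form.

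All 7 genes had higher means after AC-T than after saline, by 1.15-fold for Nos1 to 2.12-fold for Crhbp. The median log2 fold change of the 7 was 0.57, and that of all tested genes was −0.0029. In edgeR's quasi-likelihood fit, 5 of the 7 were called higher and 0 lower (2 not called), where 4.89% of all genes were called higher and 3.58% lower. Groups did not overlap for 3 of the 7, with AC-T higher, where this was so for 4.42% of all genes. Since the genes were chosen on this comparison, nothing is read from either count. Just inside the call was Satb1, with a log2 fold change of 0.53 ± 0.13 (SE of the fit), and just outside it was Elfn1 at 0.30 ± 0.10.

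**Figure D1:**
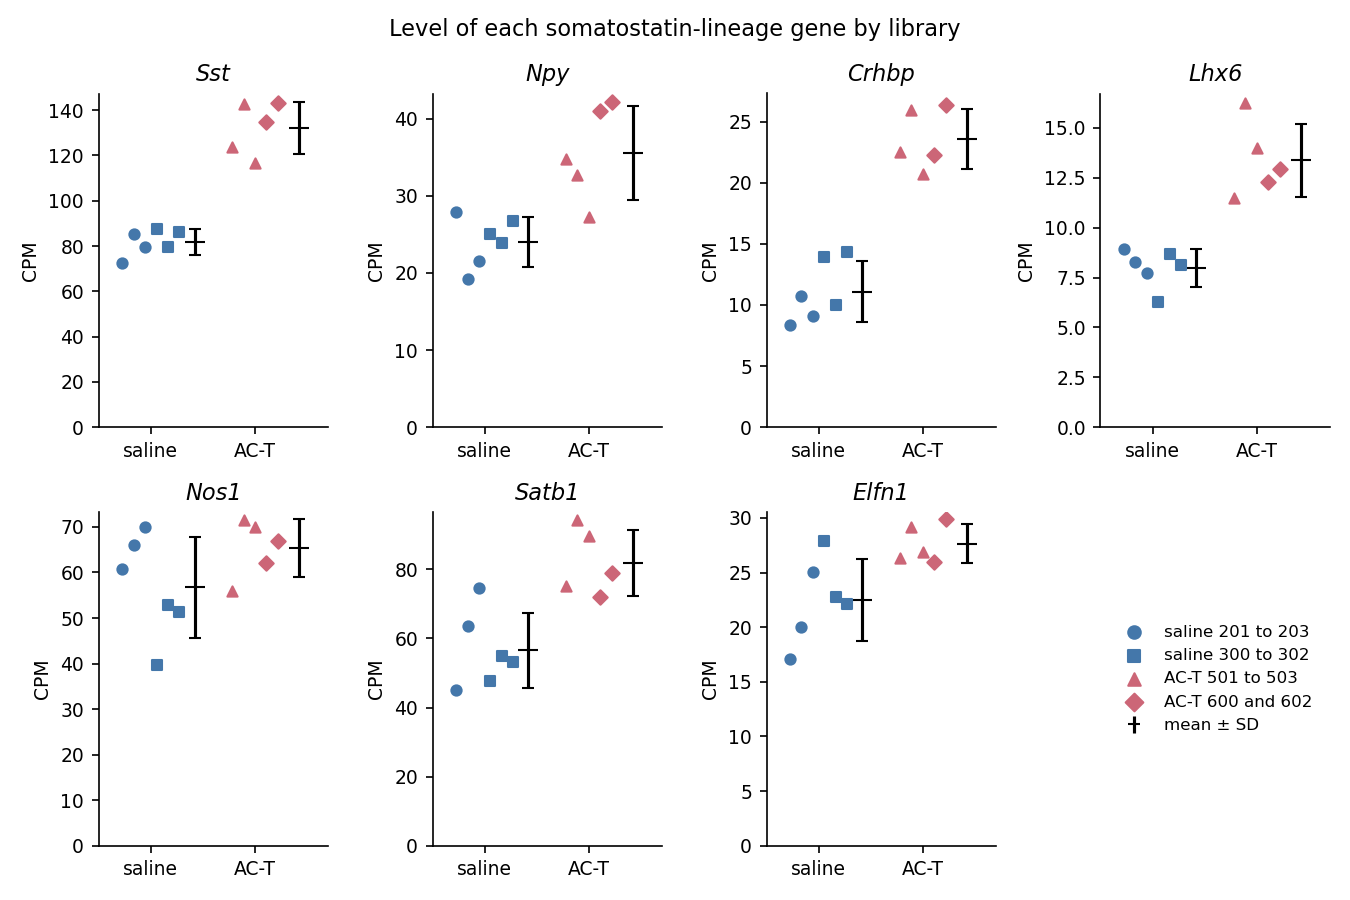
Level of each of the 7 genes in every library, as CPM on a linear axis from 0, with the mean and SD of each group (6 saline and 5 AC-T mice) in black and marker shapes by the first digit of the mouse number. All AC-T points lie above all saline points for Sst, Crhbp and Lhx6, while points of the groups overlap for Npy, Nos1, Satb1 and Elfn1.

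Sst, which encodes the somatostatin peptide, stood at 124, 143, 117, 135 and 143 CPM in AC-T mice 501, 502, 503, 600 and 602, and at 72.6 to 87.5 CPM (median 82.4) in the 6 saline mice. All 5 AC-T mice were above every saline mouse, with mouse 503 the nearest to them. The means were 132 ± 11.7 CPM after AC-T (SD, n = 5) and 81.8 ± 5.61 CPM after saline (SD, n = 6), a 1.62-fold difference (log2 0.69 ± 0.066 SE). Its spread within saline was the smallest of the 7 genes, with a coefficient of variation of 6.86%.

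Npy encodes neuropeptide Y, which is released by part of the somatostatin neurons and by neurogliaform and ivy cells. It stood at 34.8, 32.7, 27.3, 41.0 and 42.1 CPM in the AC-T mice in the same order, and at 19.2 to 27.9 CPM (median 24.5) in the saline mice. The overlap came from 1 mouse of each group: AC-T 503 lay below saline 201 and above the other 5 saline mice. Group means were 35.6 ± 6.12 CPM (SD, n = 5) and 24.1 ± 3.23 CPM (SD, n = 6), with a log2 fold change of 0.57 ± 0.12. Within AC-T the 2 mice numbered 600 and 602 had the highest values, and Npy had the widest relative spread of the 7 genes there (17.2%).

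Crhbp encodes a secreted protein that binds corticotropin-releasing hormone and keeps it from its receptors. The AC-T mice had 22.5, 26.0, 20.7, 22.3 and 26.4 CPM, and the saline mice 8.33 to 14.4 CPM (median 10.4). No saline mouse reached the AC-T range. Its means of 23.6 ± 2.49 (SD, n = 5) and 11.1 ± 2.51 CPM (SD, n = 6) gave the largest difference of the 7 genes, 2.12-fold (log2 1.09 ± 0.14). The relative spread within saline was also the widest, at 22.6%, with saline 300 and 302 highest.

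Lhx6 encodes the LIM homeodomain factor that acts after Nkx2-1 in neurons leaving the MGE and that stays on in adult somatostatin and parvalbumin neurons. Its level was 11.5, 16.2, 14.0, 12.3 and 12.9 CPM in the AC-T mice, and 6.26 to 8.92 CPM (median 8.20) in the saline mice. The groups were apart, with saline 300 lowest of all. Means of 13.4 ± 1.83 (SD, n = 5) and 8.00 ± 0.953 CPM (SD, n = 6) differed 1.67-fold (log2 0.74 ± 0.10).

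Satb1 encodes a chromatin organiser needed for the maturation of somatostatin neurons. Values of 75.2, 94.2, 89.5, 71.9 and 78.8 CPM were found in the AC-T mice, and of 45.1 to 74.6 CPM (median 54.0) in the saline mice. Saline 203, the highest of its group, lay above AC-T 600, and the other 5 saline mice lay below all AC-T mice. The means were 81.9 ± 9.52 (SD, n = 5) and 56.5 ± 10.9 CPM (SD, n = 6), a 1.45-fold difference. Its call did not hold when any 1 of 4 libraries was left out (AC-T 502, 503 or 602, or saline 300, the library with Xist at 0). Over all genes, 625 to 1229 were called without single libraries, against 1301 as reported. Satb1 was chosen on this comparison, so nothing is read from its call.

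Nos1, the neuronal nitric oxide synthase, marks long-range somatostatin neurons and, in the hippocampus, ivy and neurogliaform cells. It reached 55.9, 71.6, 70.0, 62.1 and 67.0 CPM in the AC-T mice, and 39.6 to 70.0 CPM (median 56.8) in the saline mice. All AC-T values but that of mouse 502 lay within the saline range, and saline 300 was lowest. Means of 65.3 ± 6.36 (SD, n = 5) and 56.7 ± 11.1 CPM (SD, n = 6) gave a log2 fold change of 0.20 ± 0.13, the smallest of the 7.

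Elfn1 encodes a transmembrane protein that sits in the dendrites of stratum oriens somatostatin cells and recruits metabotropic glutamate receptors to the terminals that contact them. The AC-T mice had 26.3, 29.1, 26.9, 26.0 and 29.9 CPM and the saline mice 17.1 to 27.9 CPM (median 22.4). Saline 300 alone lay within the AC-T range, and saline 203 lay just below it. The means were 27.6 ± 1.77 (SD, n = 5) and 22.5 ± 3.76 CPM (SD, n = 6), with a coefficient of variation after AC-T of 6.40%, the lowest of the 7 genes.

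Levels per length order the genes differently from CPM. Divided by the median length of their annotated protein-coding transcripts, the saline levels were 113 ± 7.78 CPM per kilobase for Sst, 42.5 ± 5.71 for Npy, 15.7 ± 3.04 for Satb1, 12.6 ± 2.47 for Nos1, 6.37 ± 1.44 for Crhbp, 5.87 ± 0.982 for Elfn1 and 2.43 ± 0.290 for Lhx6 (SD, n = 6). The ranges of mean ± SD overlapped between the neighbours Satb1 and Nos1 and between Crhbp and Elfn1. The peptide genes stood at the top of the order and the transcription factor Lhx6 at the bottom. After AC-T the order was the same, from 183 ± 16.2 CPM per kilobase for Sst to 4.07 ± 0.557 for Lhx6 (SD, n = 5). With the longest transcript as divisor, Nos1 came below Crhbp and Elfn1 in saline (5.60 against 6.23 and 5.87 CPM per kilobase).

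The level of each gene was next set against the general GABA neuron genes. These 4 genes, among them Gad1 and Gad2, which make GABA, and Slc32a1, which loads it into vesicles, gave 0 of 4 calls in edgeR, 0 at an unadjusted p under 0.05 and 0 calls in DESeq2. Over all genes 8.47% were called in edgeR and 2566 of 15353 in DESeq2, so nothing is read from counts over 4 genes. Gad1 was at 305 ± 26.7 CPM after AC-T and 283 ± 53.2 CPM after saline, and Gad2 at 156 ± 17.2 and 154 ± 19.0 CPM (SD, n = 5 and 6). Relative to the mean log2 CPM of Gad1, Gad2 and Slc32a1, Sst lay at −0.093 after AC-T and −0.75 after saline, Crhbp at −2.58 and −3.65, and Lhx6 at −3.39 and −4.09. These 3 ratios did not overlap between groups, and those of the other 4 genes did. The ratios use the comparison on which the genes were chosen, and no share over all genes is given for them. They are a description, and nothing is read from this count. For Sst the gap was narrow, between −0.389 in the lowest AC-T mouse and −0.394 in the highest saline mouse, and with Gad1 alone or Slc32a1 alone as reference its groups overlapped.

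The thalamic and neocortical scores were then entered as covariates beside treatment. With the thalamic score, the log2 fold change was 0.49 ± 0.13 for Sst, 0.61 ± 0.26 for Crhbp, 0.72 ± 0.24 for Lhx6 and 0.040 ± 0.22 for Elfn1. In that fit 0 of the 7 genes were called in edgeR, where 0.00651% of all genes (1 of 15353) were called. An unadjusted p under 0.05 was reached by 3 of the 7 (Sst, Crhbp and Lhx6) and by 7.71% of all genes. The thalamic score did not overlap between treatments (4.55 to 5.33 against 5.66 to 6.47), so treatment and this score can be told apart only in part, and the SE of Sst widened from 0.066 to 0.13. With the neocortical score, Satb1 went to 0.20 ± 0.091 and Nos1 to −0.098 ± 0.13, while Sst (0.74 ± 0.095), Npy (0.82 ± 0.14) and Crhbp (1.29 ± 0.19) were called, where 0.905% of all genes were. With both scores 0 of 7 genes were called in edgeR, where 0% of all genes were called, and 3 of the 7 (Sst, Npy and Crhbp) and 3.63% of all genes had an unadjusted p under 0.05. These fits use the comparison on which the 7 genes were chosen, so their counts are a description and nothing is read from them.

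**Figure D2:**
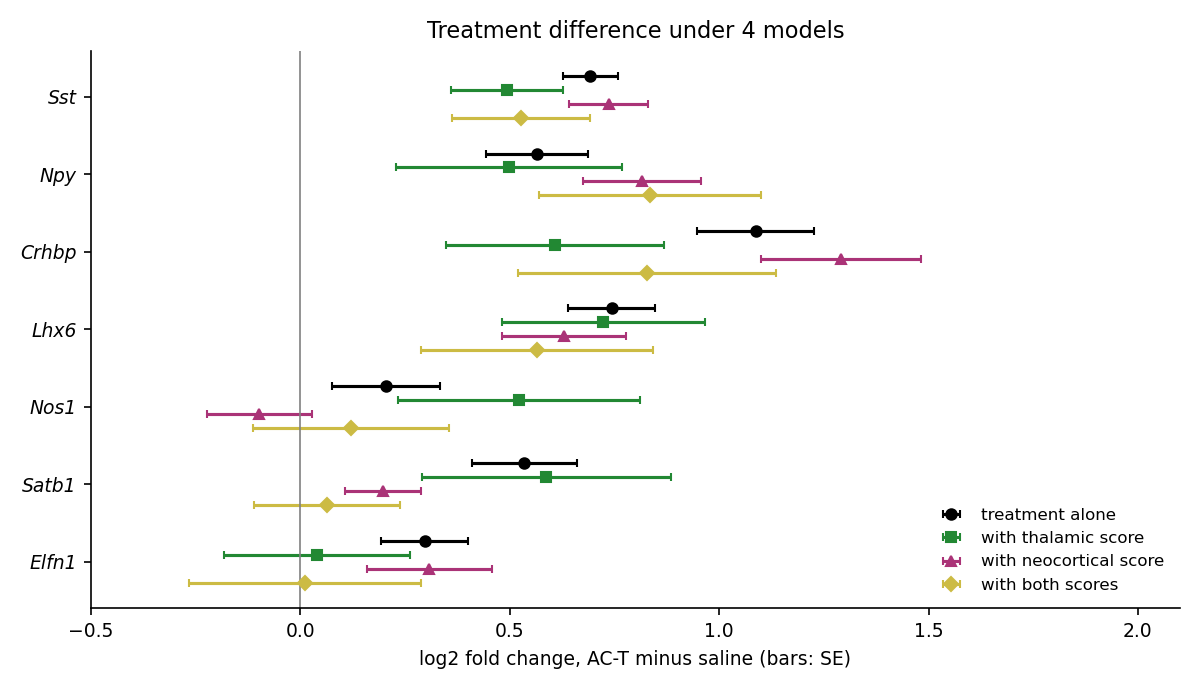
Log2 fold change of each gene (AC-T minus saline) with its SE, fitted with treatment alone and with the thalamic score, the neocortical score or both as covariates. Sst, Npy, Crhbp and Lhx6 stay above 0 by more than 1 SE in each of the 4 models. Satb1, Nos1 and Elfn1 come within 1 SE of 0 in at least 1 of them. The genes were chosen on this comparison, so the bars are a description and not a test.

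Differences between mice of the same treatment did not enter the choice of the genes, and these were tested. Mouse numbers start with a digit that splits saline into mice 201 to 203 and 300 to 302, and AC-T into mice 501 to 503 and 600 with 602. The labels do not say what the digit stands for, and no series holds both treatments. Between the saline series, 0 of 7 genes passed in edgeR, where 1.03% of all genes passed, and 2 of 7 had an unadjusted p under 0.05, as had 20.1% of all genes. These 2 were Nos1, at 65.6 ± 4.67 CPM in mice 201 to 203 and 47.9 ± 7.22 CPM in mice 300 to 302 (SD, n = 3 each; log2 −0.45 ± 0.12, edgeR adjusted p = 0.0951), and Crhbp, at 9.40 ± 1.24 and 12.8 ± 2.39 CPM (log2 0.44 ± 0.16, edgeR adjusted p = 0.165). Without mice 300 to 302, Nos1 showed a log2 fold change of −0.014 between AC-T and saline.

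Between the AC-T series, 0 of 7 genes passed in edgeR, where 0.117% of all genes passed, and 1 of 7 had an unadjusted p under 0.05, as had 13.5% of all genes. That gene was Npy, at 31.6 ± 3.87 CPM in mice 501 to 503 (SD, n = 3) and 41.6 ± 0.804 CPM in mice 600 and 602 (SD, n = 2; log2 0.40 ± 0.14, edgeR adjusted p = 0.271). For Sst, Crhbp and Lhx6 the log2 differences between the AC-T series were 0.12, 0.078 and −0.14. Series means of Sst were 128 and 139 CPM after AC-T and 79.1 and 84.4 CPM after saline, and those of Crhbp were 23.1 and 24.3 against 9.40 and 12.8 CPM.

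Slopes on the tissue scores were tested within treatments as well. On the thalamic score 0 of 7 genes passed in edgeR, where 0.0261% of all genes passed, and 0 of 7 had an unadjusted p under 0.05, as had 6.27% of all genes. The steepest slope was that of Crhbp, −0.46 ± 0.22 log2 per unit of score. On the neocortical score 0 of 7 passed in edgeR, where again 0.0261% of all genes passed, and 3 of 7 had an unadjusted p under 0.05, as had 8.31% of all genes. These were Satb1 (0.80 ± 0.14, edgeR adjusted p = 0.198), Nos1 (0.71 ± 0.20, edgeR adjusted p = 0.431) and Npy (−0.57 ± 0.22, edgeR adjusted p = 0.519). The neocortical slopes were added after the data were seen.

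The genes were then compared with each other over the 11 libraries after the mean of each treatment was removed. Of 21 pairs, Sst and Crhbp varied together most closely (Pearson r = 0.81, exact permutation p = 0.000486, adjusted over the 21 pairs 0.0102; Spearman rho = 0.83, exact permutation p = 0.000324, adjusted 0.00681). Within the 6 saline mice r was 0.90. Over all 11 libraries r was 0.74 without the 2 libraries farthest from the median, and it stayed between 0.73 and 0.84 when single libraries were left out. No other pair passed after adjustment. Npy and Satb1 had the lowest value (r = −0.72, exact permutation p = 0.0125, adjusted 0.132; rho = −0.71). Pairs ran in both directions, with a median r of −0.061 over all 21.

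**Figure D3:**
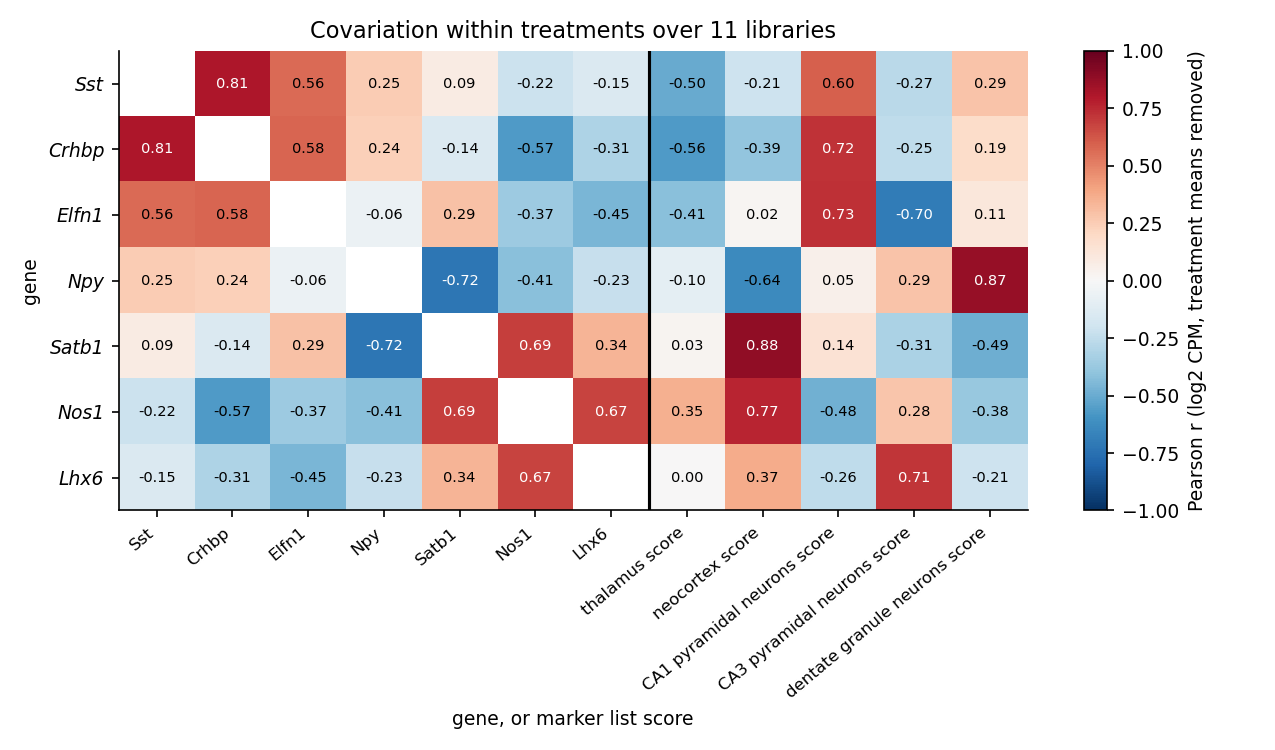
Pearson r over 11 libraries, after removal of treatment means, between the 7 genes (left of the black line) and between each gene and 5 marker list scores (right), coloured from −1 in blue to 1 in red. Sst with Crhbp (0.81), Satb1 with the neocortical score (0.88) and Npy with the dentate score (0.87) are the strongest positive cells.

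Each gene was also compared with 5 tissue scores, 35 relations in all. Satb1 followed the neocortical score (r = 0.88, exact permutation p = 0.00171, adjusted over the 35 relations 0.0300; rho = 0.93, exact permutation p = 0.000637, adjusted 0.0223), with r = 0.84 without the 2 libraries farthest from the median. Npy followed the dentate granule neuron score (r = 0.87, exact permutation p = 0.000451, adjusted 0.0158), with r = 0.77 without the 2 farthest libraries. Its rank correlation did not pass after adjustment (rho = 0.80, exact permutation p = 0.00784, adjusted 0.0914). No other relation passed. For Sst and Crhbp, r with the thalamic score was −0.50 and −0.56, and with the CA1 score 0.60 and 0.72, with adjusted p of 0.406, 0.333, 0.153 and 0.257 by the exact permutation test.

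**Figure D4:**
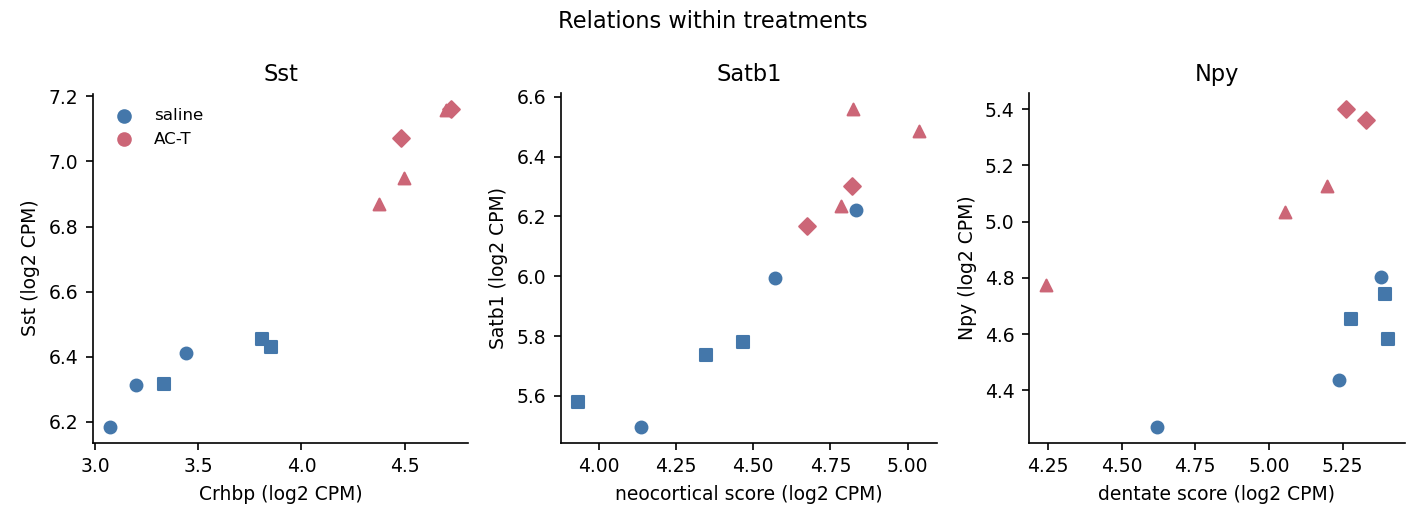
Log2 CPM of Sst against Crhbp, of Satb1 against the neocortical score and of Npy against the dentate score, 1 point per library, AC-T in red and saline in blue with shapes by the first digit of the mouse number. After removal of treatment means, r over the 11 libraries is 0.81, 0.88 and 0.87 in the 3 panels.

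Among 13964 tested genes of at least moderate level (average log2 CPM of at least 1), those most like each gene over the 11 libraries, treatment means removed, were as follows. For Sst they were Zfp709, Ttc9 and Gorab (r = 0.88 to 0.90), with Crhbp at rank 34. For Crhbp they were Ubxn4, Sdhaf1 and Ap3m1-ps (0.90 to 0.95), with Sst at rank 49. Npy was followed by Cd276, Rcc2 and Camk2b (0.93 each), and Lhx6 by Slc9a4, Sv2b and Klhl22 (0.95 to 0.96). Nos1 was nearest to Phyhipl, Mapre2 and Grp (0.96 to 0.97), and Satb1 to Ldb2, Serpini1 and Tshz2 (0.96 to 0.97), the last of which is on the neocortical list. Elfn1 was nearest to Cdc37l1 and Pik3r1 (0.92 to 0.94). With so many genes and 11 libraries these are descriptions.

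Genes related to the 7 by lineage or pathway were examined as lists, 67 tested genes in all, of which 10 were higher and 8 lower after AC-T, where 8.47% of all genes passed in either direction. The lists, like the 7 genes, share these libraries and are described by counts and medians, beside −0.0029 for all genes. Of 10 transcription factors of the MGE and of GABA neurons, 5 rose and 1 fell, with a list median log2 fold change of 0.40. Dlx1, a distal-less homeobox factor of GABA neurons, rose from 8.68 ± 1.25 to 12.6 ± 1.42 CPM (edgeR adjusted p = 0.0134), and Npas1, of the bHLH-PAS family, from 5.23 ± 0.632 to 7.30 ± 0.806 CPM (edgeR adjusted p = 0.0177). Dlx2 rose from 1.82 ± 0.150 to 2.77 ± 0.400 CPM (edgeR adjusted p = 0.0381), a call lost when any 1 of 10 of the libraries was left out (adjusted p up to 0.0983 without AC-T 502). Npas3 fell from 12.0 ± 0.584 to 10.3 ± 0.898 CPM (edgeR adjusted p = 0.0457), lost without any 1 of 8 libraries (up to 0.104 without AC-T 602). Sox6 and Maf, which like Satb1 act downstream of Lhx6, had log2 fold changes of −0.034 ± 0.085 and 0.032 ± 0.13 and did not pass. Dlx5 and Dlx6 did not pass either. With the thalamic score as covariate the log2 fold change of Dlx1 went from 0.54 to 0.052, that of Dlx2 from 0.60 to 0.24 and that of Npas3 from −0.23 to −0.12, while Npas1 was at 0.60. With series as a random effect in limma-voom the calls of Dlx1 (adjusted p = 0.0552), Npas1 (0.0818), Dlx2 (0.104) and Npas3 (0.136) were lost.

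Among 9 further genes of somatostatin neuron subtypes, 1 rose and 1 fell, with a median of −0.14. Cort encodes cortistatin, a peptide related to somatostatin that binds the same receptors. It was at 5.24, 5.47, 5.36, 6.13 and 6.54 CPM in the AC-T mice and at 2.79 to 3.90 CPM in the saline mice. The groups did not overlap, the means rose 1.71-fold (log2 0.77 ± 0.10, edgeR adjusted p = 0.00248), and the call held when each library was left out in turn and with series as a random effect (limma adjusted p = 0.0116). With the thalamic score as covariate its log2 fold change was 0.73. Nxph1, Grin3a, Pnoc, Pdyn, Calb1 and Reln did not pass. Tacr1, a receptor of long-range somatostatin neurons, was listed at 0 in 4 AC-T and 2 saline mice and at 109 to 165 counts in the others, so no fold is given.

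Over all genes 8.47% were called in edgeR and 2566 of 15353 in DESeq2, so nothing is read from the counts of the next list. Receptors of the 2 peptides and the corticotropin-releasing hormone system gave 0 of 10 calls in edgeR, 2 at an unadjusted p under 0.05 and 1 call in DESeq2. The 2 were the somatostatin receptors Sstr2 (6.69 ± 1.62 CPM after saline and 9.47 ± 2.42 after AC-T, edgeR adjusted p = 0.129) and Sstr4 (6.15 ± 2.32 and 9.74 ± 1.16, edgeR adjusted p = 0.101). Sstr4 also differed between the saline series, by a log2 of 0.98 (edgeR adjusted p = 0.0306). The neuropeptide Y receptors Npy1r (25.6 ± 3.88 and 24.7 ± 3.97 CPM) and Npy2r (32.2 ± 8.15 and 37.8 ± 8.07 CPM) and the receptor Crhr1 (13.3 ± 4.07 and 12.3 ± 1.44 CPM) did not pass. Crh itself was listed at 0 in 1 saline mouse and at 26 to 86 counts in the others.

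Of 9 genes of nitric oxide signalling, 2 rose and 1 fell. Nos1ap, an adaptor that binds neuronal nitric oxide synthase, rose from 47.3 ± 6.90 to 67.2 ± 6.44 CPM (edgeR adjusted p = 0.0136), and Gucy1b3, the beta subunit of the guanylyl cyclase that senses nitric oxide, from 106 ± 6.30 to 131 ± 13.1 CPM (edgeR adjusted p = 0.0198). Prkg2, a protein kinase activated by cyclic GMP, fell from 13.2 ± 0.952 to 6.82 ± 1.35 CPM (log2 −0.95 ± 0.11, edgeR adjusted p = 0.00147). The subunit Gucy1a3 and the kinase Prkg1 did not pass. With series as a random effect in limma-voom the calls of Nos1ap (adjusted p = 0.0518) and Gucy1b3 (0.0926) were lost and that of Prkg2 held (0.00617). With the thalamic score as covariate the log2 fold change was 0.32 for Nos1ap, 0.24 for Gucy1b3 and −0.62 for Prkg2. Among 6 tested partners and relatives of Elfn1, Grm4 fell from 44.9 ± 14.8 to 25.8 ± 2.99 CPM (edgeR adjusted p = 0.0285), a call lost without any 1 of 6 libraries (up to 0.0787 without AC-T 502) and with series as a random effect (limma adjusted p = 0.0916). Its log2 fold change went from −0.80 to −0.11 with the thalamic score. The receptor Grm7, which Elfn1 recruits, was at 44.0 ± 4.31 and 41.6 ± 3.32 CPM and did not pass.

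Other interneuron classes were examined beside these. Of 8 genes of parvalbumin neurons, which share the MGE origin and Lhx6, 0 rose and 2 fell, with a median log2 fold change of −0.37. Pvalb itself fell from 76.3 ± 21.1 to 48.7 ± 6.66 CPM (edgeR adjusted p = 0.0391), a call lost without any 1 of 6 libraries, and with the thalamic score as covariate its log2 fold change was −0.010. Cox6a2, a mitochondrial subunit enriched in parvalbumin neurons, fell from 7.75 ± 1.20 to 5.50 ± 0.555 CPM (edgeR adjusted p = 0.0224), a call lost without AC-T 502 (0.0638), and its log2 fold change went from −0.49 to −0.14 with the thalamic score and reversed in sign with both scores. Of 11 genes of interneurons from the caudal ganglionic eminence, 2 rose and 2 fell, with a median of 0.10. Lamp5, of neurogliaform cells, rose from 28.4 ± 3.53 to 42.8 ± 5.26 CPM (edgeR adjusted p = 0.00707), and Cnr1, the cannabinoid receptor, from 83.3 ± 10.4 to 124 ± 19.6 CPM (edgeR adjusted p = 0.0124). Adarb2 fell from 42.8 ± 5.46 to 29.6 ± 3.32 CPM (edgeR adjusted p = 0.00974), as did Calb2 (edgeR adjusted p = 0.0378, lost without any 1 of 9 libraries). With the thalamic score the log2 fold change was −0.12 for Adarb2, −0.077 for Calb2 (reversed in sign with both scores), 0.62 for Cnr1 and 0.64 for Lamp5. With series as a random effect in limma-voom the calls of Lamp5 (adjusted p = 0.0270) and Adarb2 (0.0435) held, and those of Cnr1 (0.0555), Cox6a2 (0.116), Pvalb (0.130) and Calb2 (0.173) were lost. The difference between the somatostatin-lineage genes and these classes was not tested. With the thalamic score as covariate, 0 of the 67 related genes passed in edgeR, where 0.00651% of all genes (1 of 15353) passed. An unadjusted p under 0.05 was reached by 7 of the 67 and by 7.71% of all genes.

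**Figure D5:**
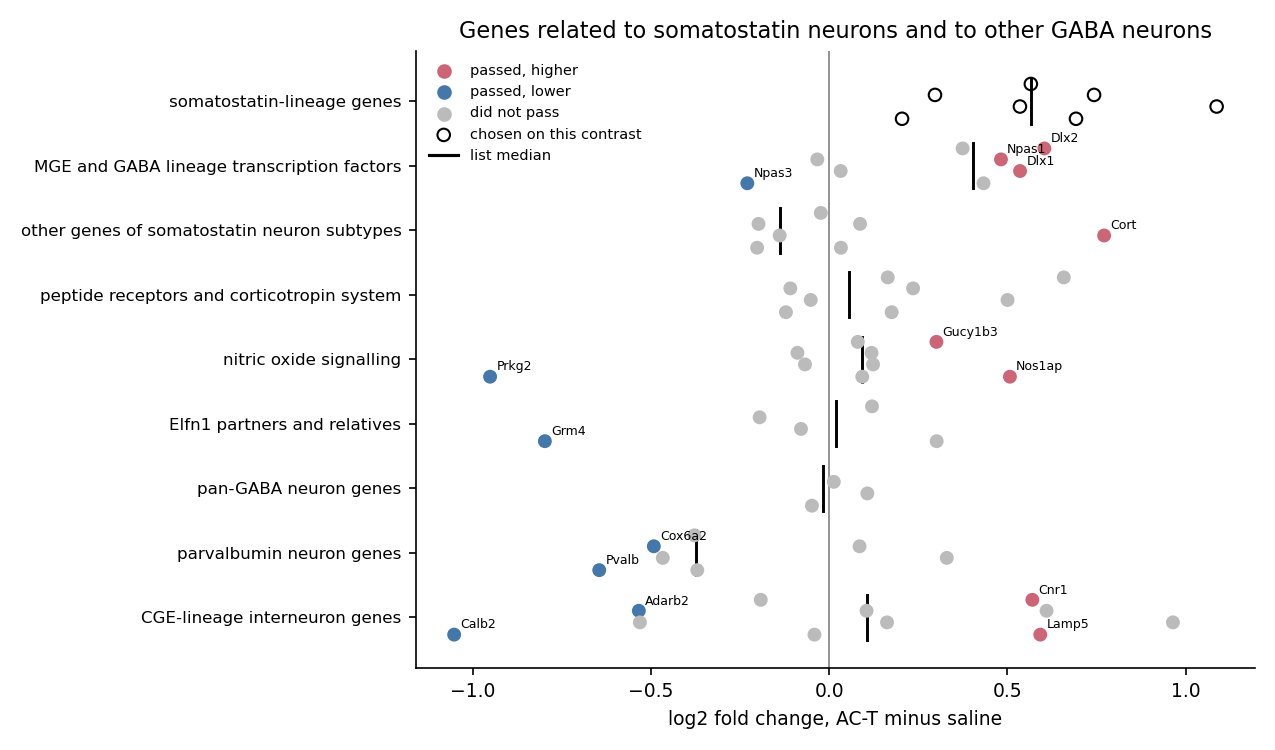
Log2 fold change (AC-T minus saline) of each tested gene by list, red where it passed higher, blue where it passed lower and grey where it did not pass, with open circles for the 7 chosen genes and a black line at each list median. Genes listed at 0 in any library and a few genes not reported here are not drawn, though the medians include them. Dlx1, Dlx2 and Npas1 lie to the right as passed, and the parvalbumin list has its median at −0.37.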

How the data were processed

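Expression was measured in bulk hippocampal punches of 11 female mice, 1 library each, by sequencing of stranded mRNA libraries. Per the submitters' processing notes, the authors used Dragen 4.3.6, FastQC 0.11.9, Salmon 1.9.0 and genome build GRCm39; the annotation release and the step that wrote the table are not given in the sources used here. The deposited values are expected counts per gene, in which reads shared by similar genes are divided by probability. They were rounded to whole numbers. Groups came from sample titles. AC-T was compared with saline in R 4.3.3 with edgeR 4.0.16 (quasi-likelihood test, 2-sided, TMM scaling, genes kept by filterByExpr at a minimum count of 10, calls at p under 0.05 after Benjamini-Hochberg adjustment over 15353 genes; biological coefficient of variation 0.174). The same model with 4 series means, or with a tissue score, tested variation within treatments. Correlations used log2 CPM (prior count 2) with treatment means removed and exact permutation of libraries within treatments (86400 arrangements). Transcript lengths came from GENCODE and start-site windows from RefSeq, both on GRCm38. Genes named are the 7, up to 4 per related list with the smallest p and any needed to state a small count, and the 3 most similar to each of the 7. A few genes counted in the lists are not reported here. The 7 genes and all lists were chosen with earlier results of these data known. DESeq2 1.42.0, limma-voom (limma 3.58.1), other scalings and filters, covariates, and omission of libraries or series were alternatives. The fitting code was tested on simulated data. A listed 0 can be a failed estimate.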

Additional observations from a re-analysis of the deposited data

Results flagged for a closer look

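In 68 groups of 4 to 10 values, the highest or lowest library was checked for its distance from the others, and chance alone would flag about 5% of such groups. No value of the 7 genes was flagged, and 5 list scores (mean log2 CPM) were. The score of the other genes of somatostatin neuron subtypes was 4.39 in AC-T 602, far above the other AC-T libraries at 3.59 to 3.75; this is the only AC-T library in which Tacr1 was not listed at 0. The score of the peptide receptors and corticotropin system was 2.60 in AC-T 501, far below the others at 3.15 to 3.36, and Crhr2 was listed at 0 in that library. The dentate granule neuron score was 4.24 in AC-T 503 (others 5.05 to 5.33) and 4.62 in saline 202 (others 5.24 to 5.40). These 2 libraries also had the lowest Npy of their groups, 27.3 and 19.2 CPM. The oligodendrocyte score was 9.99 in AC-T 502, against 10.5 to 10.6 in the other AC-T libraries.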

How the results depend on the processing

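Of the 7 genes, 5 were called in the comparison as reported and 4 to 5 when single libraries were left out. The count was 6 in DESeq2, 3 with series as a random effect in limma-voom and 3 with the neocortical score. It was 0 with the thalamic score and 0 with both scores. Without saline 300 to 302 it was 3, and without AC-T 600 and 602 it was 3. Counts of the 7 without saline 201 to 203 or without AC-T 501 to 503 are not given here. No count over all genes is given without saline 300 to 302. Sst, Npy, Crhbp and Lhx6 were also called without each single library, Npy only just when AC-T 602 was left out. Since the 7 genes were chosen on this comparison, their calls under all these settings are a description, and nothing is read from them. Of 67 related genes 18 were called as reported, 12 to 18 without single libraries, 25 in DESeq2, 7 with series as a random effect, 2 with the neocortical score, 0 with the thalamic score and 0 with both, 8 without saline 201 to 203, 5 without AC-T 501 to 503, 6 without AC-T 600 and 602, and 11 without both saline 201 and 300 (added after the data were seen). Nos1 reversed to −0.098 with the neocortical score and −0.014 without saline 300 to 302. Over all genes 1301 were called in edgeR and 2566 in DESeq2, 625 to 1229 without single libraries, 293 with series as a random effect, 1, 139 and 0 with the thalamic, neocortical or both scores, 549, 317 and 409 without saline 201 to 203, AC-T 501 to 503, or AC-T 600 and 602, and 603 without saline 201 and 300. Called genes were 57.7% higher with TMM scaling and 47.2% with upper-quartile scaling, with 5 of the 7 called under each. Between series and on the thalamic score, 0 of the 7 were called with each library left out. The median r of the 21 pairs was −0.15 to 0.15 without single libraries. No paired analysis was possible because the groups share no mouse numbers. Few mice and series that each hold 1 treatment limit these results, and the causes of these shifts were not tested.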
